A study of Homo sapiens with 5 samples.

Results

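miR-192, miR-194 and miR-215 are microRNAs (miRNAs) of the digestive epithelium. Their 3 probes, taken by the exact names hsa-miR-192, hsa-miR-194 and hsa-miR-215, are among the 734 miRNA probes (654 of them human) of the nanoString nCounter Human v2 panel, which counts barcoded reporter molecules hybridised to miRNAs, with no amplification step. The cells were Caco2, a human colorectal adenocarcinoma line that forms a polarised epithelial sheet and takes on features of enterocytes. They had been infected and selected with an shRNA against PLEKHA7, a protein of epithelial adherens junctions (shPLEKHA7, n = 3), or with a non-target shRNA (NT, n = 2, replicates 1 and 3), so both groups went through viral infection and selection. The series text describes independent sets of infections. An NT replicate 2 was not analysed here. Groups were taken from the sample titles, since the source field of shPLEKHA7 replicates 2 and 3 names other members of the PLEKHA gene series. The titles, unlike that source field, name 1 shRNA target, and they name no second shRNA against it. PLEKHA7 itself has no probe on the panel, so its depletion was not checked here.

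A miRNA guides a silencing complex to messenger RNAs, mainly through its seed, which is bases 2 to 8 from the 5′ end. miR-192 and miR-215 share a seed and form one family, while miR-194 has another seed but is made from the same primary transcripts. In the liver, kidney and gut epithelium these miRNAs are known to depend on hepatocyte nuclear factors, and p53 is known to induce them.

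The sequences are shown for how alike the 3 miRNAs are, with the seed in capitals. Each probe's target sequence matched a RefSeq mature miRNA exactly, in the build GRCh38.p14.
miR-192: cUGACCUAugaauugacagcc
miR-215: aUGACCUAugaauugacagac
miR-194: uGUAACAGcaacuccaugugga
miR-192 and miR-215 are identical at 19 of 21 bases. Counted from the 5′ end, with the base of miR-192 first, they differ by C1A and C20A, and both positions lie outside the seed. No other human probe on the panel has the seed UGACCUA of this pair, and none but miR-194 has GUAACAG. The next closest probe to miR-192 after miR-215, miR-193a-3p, matches it at 13 bases without gaps. Whether the miR-215 probe also reads miR-192 was not tested.

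Mature miR-192 lies at chr11:64891203-64891223 and mature miR-215 at chr1:220117916-220117936, both on the minus strand. Each has a copy of miR-194 beside it on the same strand. The MIR192 and MIR194-2 hairpins on chromosome 11 are 108 bases apart, within the span of the long non-coding RNA gene MIR194-2HG. The MIR215 and MIR194-1 hairpins on chromosome 1 are 194 bases apart, within the span of IARS2, which encodes a mitochondrial isoleucyl-tRNA synthetase, and of the long non-coding RNA gene LOC124904515. These spans were matched by position alone, so whether the genes lie on the same strand as the hairpins was not checked. Mature miR-194 is encoded at chr11:64891404-64891425 and at chr1:220118206-220118227. The 2 precursors below, with mature miR-194 in capitals, are identical at 50 of 85 positions, but the mature part is the same in both.
MIR194-1: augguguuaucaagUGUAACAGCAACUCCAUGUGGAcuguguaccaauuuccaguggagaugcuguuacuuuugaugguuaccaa
MIR194-2: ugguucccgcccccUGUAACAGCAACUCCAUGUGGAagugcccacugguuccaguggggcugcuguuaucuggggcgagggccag
Mature miR-194 from the 2 loci therefore cannot be told apart by its count, whereas mature miR-192 and mature miR-215 each match 1 locus in RefSeq. The 3p arms of miR-192, miR-194 and miR-215 have no probe with their RefSeq sequence on the panel.

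Total miRNA counts ran from 32138 to 58298 in the shPLEKHA7 lanes and were 34942 and 50372 in the NT lanes. The limit of detection, the mean plus 2 SD of the 8 negative-control probes of a lane, ran from 11 to 24.45 counts. The epithelial markers miR-200c, miR-141, miR-200b, miR-192 and miR-194 were above it in all 5 lanes. Of these, miR-192 and miR-194 are themselves members. The member miR-215 was above it in the shPLEKHA7 lanes alone, and miR-375, miR-7 and miR-802 of the digestive epithelium were above it in 0 lanes. Of 10 markers of blood, stroma, muscle and liver, 4 (miR-150, miR-451, miR-143 and miR-133a) were above it in 0 lanes and none was at a count of 0. The rest were detected, miR-223, miR-126 and miR-214 in 5 lanes and miR-142-3p, miR-145 and miR-122 in 3 lanes. Summed raw counts of those 10 markers ran from 147 to 286 in the shPLEKHA7 lanes and from 155 to 222 in the NT lanes. Of these 10 markers 6 were tested and edgeR called none, with 1 at an unadjusted p under 0.05 (miR-214). Over all 204 tested probes edgeR called 6.37%, and 48 were at an unadjusted p under 0.05. The groups of miR-214 were apart as higher, as were those of 26% of all tested probes. The log2 fold changes of these markers were 0.84 for miR-214, 0.30 for miR-223 and 0.20 for miR-122. Those of the others were 0.07 for miR-145, -0.52 for miR-126 and -0.72 for miR-142-3p. Their part in the results below was not tested. By the file numbers in the sample descriptions the shPLEKHA7 samples all follow the NT samples, so this order and the group cannot be told apart.

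In shPLEKHA7 cells miR-215 was higher than in NT cells, at 34.6 ± 9.4 against 15.0 ± 1.4 normalized counts (SD, n = 3 and n = 2), whereas miR-192 averaged 404 ± 99.2 and 409 ± 27.7 and miR-194 averaged 150 ± 19.9 and 135 ± 2.9. Normalized counts are raw counts scaled between lanes by TMM, the trimmed mean of log ratios. The edgeR quasi-likelihood test on the 204 probes above the limit in at least 2 lanes called miR-215 (log2 fold change 1.22, SE 0.31, adjusted p = 0.048). miR-215 entered that test through its shPLEKHA7 lanes alone, being above the limit in no NT lane, and without a filter on low counts the call was lost (adjusted p = 0.111 by edgeR). The test called neither miR-192 (log2 -0.01, SE 0.19, adjusted p = 0.998) nor miR-194 (log2 0.16, SE 0.16, adjusted p = 0.599). Over all tested probes 6.37% were called, 2.45% higher and 3.92% lower, and 1 of the 3 members was called, as higher. The infections were independent per the series text, but the labels do not tie each lane to one, so p-values measure only the spread between these samples, which may be partly technical.

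miR-192, the most counted of the 3, had raw counts of 365, 263 and 684 in shPLEKHA7 replicates 1, 2 and 3, and 338 and 414 in NT replicates 1 and 3. In normalized counts these were 333, 361 and 517 in the shPLEKHA7 samples, against 428 and 389 in the NT samples. The groups overlapped: the highest sample and the lowest 2 were all shPLEKHA7. The 95% interval of the log2 fold change, from -0.44 to 0.42, leaves room for a change of either sign. As a share of a lane's miRNA count, miR-192 took 0.761%, 0.818% and 1.17% in shPLEKHA7 cells, against 0.967% and 0.822% in NT cells. The Wilson 95% interval of the share in shPLEKHA7 replicate 3, from 1.09% to 1.26%, did not reach those of the other 4 lanes, of which the highest bound was 1.08%. Such intervals cover counting error only.

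miR-194 had raw counts of 156, 99 and 229 in shPLEKHA7 replicates 1, 2 and 3, and 105 and 146 in NT replicates 1 and 3. Normalized, it stood at 142, 136 and 173 in the shPLEKHA7 samples, against 133 and 137 in the NT samples. The lowest shPLEKHA7 sample lay between the 2 NT samples, so these groups overlapped too. The 95% interval of its log2 fold change ran from -0.19 to 0.52. It took 0.325%, 0.308% and 0.393% of the miRNA count in shPLEKHA7 lanes and 0.301% and 0.29% in NT lanes.

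miR-215 had raw counts of 31, 22 and 60 in shPLEKHA7 replicates 1, 2 and 3, against limits of detection of 24.45, 11 and 20.21. Its raw counts were 11 and 17 in NT replicates 1 and 3, against limits of 13.41 and 20.59. It was thus above background in 3 of 3 shPLEKHA7 lanes and in 0 of 2 NT lanes. In every lane the brightest negative control placed it on the same side, with 24, 10 and 19 counts in the shPLEKHA7 lanes and 12 and 18 in the NT lanes. Normalized counts were 28.3, 30.2 and 45.4 in shPLEKHA7 cells and 13.9 and 16.0 in NT cells, with no overlap between groups. Of all tested probes, 26% had groups apart in that direction, so the separation alone does not set miR-215 apart.

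The size of the miR-215 fold rests on an NT level that was not above background. Set against the NT limits of detection in place of the NT counts, the shPLEKHA7 level was 1.87-fold higher, as a ratio of geometric means. This ratio carries no counting error and is not a lower bound. After the mean negative control of each lane was subtracted, miR-215 kept 19.9, 17.5 and 51.5 counts in shPLEKHA7 replicates 1, 2 and 3, and 4.9 and 9.5 in NT replicates 1 and 3. The mean negative control itself was 11.1, 4.5 and 8.5 in the shPLEKHA7 lanes and 6.1 and 7.5 in the NT lanes, so the NT lanes lay within the range of the shPLEKHA7 lanes. As a share of the miRNA count miR-215 stood at 0.0646%, 0.0685% and 0.103% in shPLEKHA7 lanes, and at 0.0315% and 0.0337% in NT lanes. The Wilson 95% interval of shPLEKHA7 replicate 1, from 0.0455% to 0.0917%, overlapped that of NT replicate 1, from 0.0176% to 0.0564%.

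miR-215 passed the filter on low counts through its shPLEKHA7 lanes alone. That was so for 31 of the 204 tested probes, whose median log2 fold change was 0.74, against 0.06 over all tested probes. Of the 11 probes that, like miR-215, were above the limit in all 3 shPLEKHA7 lanes and in no NT lane, 10 had groups apart and 3 were called higher. The filter favours probes that lie higher in shPLEKHA7 cells in this way, so neither the counts nor the call of miR-215 is independent of it. When a probe had to be above the limit in all 5 lanes, miR-215 was not tested.

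**Figure D1:**
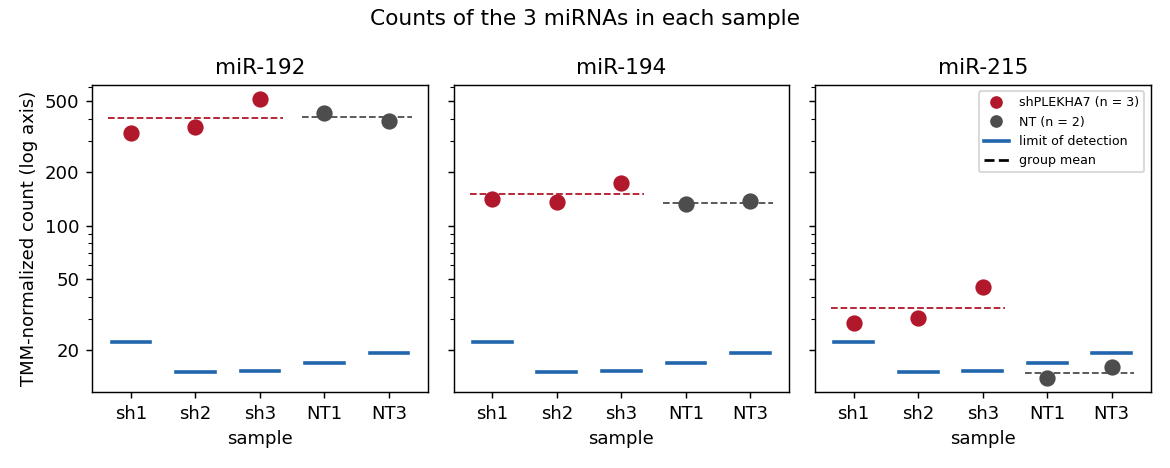
TMM-normalized counts of miR-192, miR-194 and miR-215 on a log axis for shPLEKHA7 replicates 1 to 3 (sh1, sh2, sh3) and NT replicates 1 and 3 (NT1, NT3), with group means dashed and each lane's limit of detection as a blue bar. miR-215 lies above the limit in all shPLEKHA7 lanes and below it in both NT lanes, while the groups overlap for miR-192 and miR-194.

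The call of miR-215 depended on single libraries and on the test. Without NT replicate 1 its log2 fold change was 1.14 (adjusted p = 0.209), without NT replicate 3 it was 1.38 (adjusted p = 0.149) and without shPLEKHA7 replicate 3 it was 0.95 (adjusted p = 0.0874), all by edgeR. With an NT sample left out, the lone NT sample was assumed to vary like the others. Scaling to total counts, to the 5 housekeeping mRNAs, to the spike-in controls or by DESeq2 size factors kept the call, with log2 fold changes from 0.91 to 1.29. It was lost with limma on the authors' normalized values (log2 1.06, adjusted p = 0.069) and in edgeR without a filter on low counts (log2 1.07, adjusted p = 0.111). DESeq2 gave log2 1.18 (SE 0.46) and no adjusted p for this probe.

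**Figure D2:**
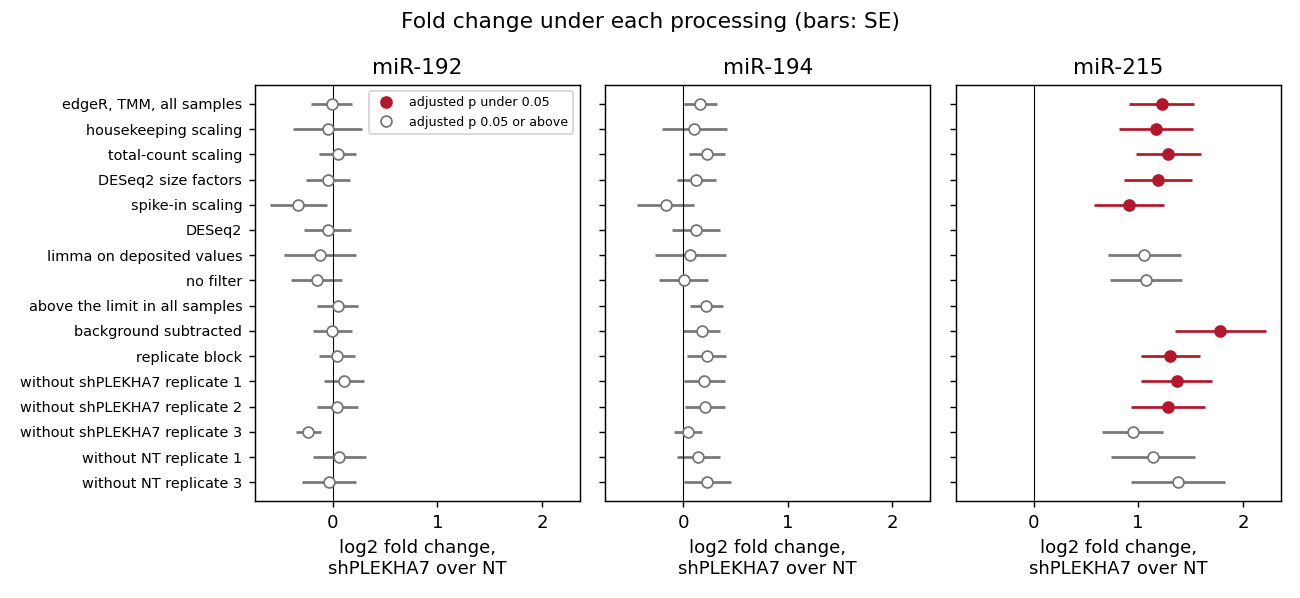
Log2 fold change of shPLEKHA7 over NT (x axis, bars are SE) for each miRNA under each processing and with each sample left out (rows), filled red where the adjusted p is under 0.05. Every value for miR-215 lies above 0 and those for miR-192 and miR-194 lie around 0, with miR-215 missing where it was not tested or had no adjusted p.

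Ratios of 2 probes within a lane do not depend on the scaling between lanes. Those with miR-215 on top are set, in NT replicates 1 and 3, on raw counts of 11 and 17 that lie below their limits of 13.41 and 20.59, so the sizes of these differences are not measured. The raw count of miR-215 was 8.49%, 8.37% and 8.77% of that of miR-192 in shPLEKHA7 replicates 1, 2 and 3, against 3.25% and 4.11% in NT replicates 1 and 3. The 3 shPLEKHA7 samples lay close together and above both NT samples. The mean log2 ratio was -3.55 ± 0.04 in shPLEKHA7 cells and -4.77 ± 0.24 in NT cells, a difference of 1.22 (SE 0.13, 2-sided exact permutation p = 0.1, the smallest that the 10 splits of 3 against 2 allow). Counting error alone gives that difference an SE of 0.32, because the NT counts of miR-215 are so low. The spread between lanes was thus smaller than counting error would give. After background subtraction the percentages were 5.62, 6.77 and 7.62 in the shPLEKHA7 lanes and 1.47 and 2.34 in the NT lanes.

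Against miR-194, which is also encoded beside miR-215 on chromosome 1, miR-215 had 19.9%, 22.2% and 26.2% of the counts in shPLEKHA7 replicates 1, 2 and 3. In NT replicates 1 and 3 it had 10.5% and 11.6%. These groups were also apart, with a log2 difference of 1.03 (SE 0.16, counting SE 0.34, 2-sided exact permutation p = 0.1). With groups of these sizes, any ratio whose groups are apart gives this p. The NT counts of miR-215 below their limits enter here too, so this ratio is no further support. For miR-194 against miR-192, whose genes neighbour each other on chromosome 11, the percentages were 42.7, 37.6 and 33.5 in shPLEKHA7 lanes and 31.1 and 35.3 in NT lanes. Here the groups overlapped and the log2 difference was 0.19 (SE 0.15, 2-sided exact permutation p = 0.4). The 3 ratios share their counts and are not independent, and adjusted over these 3 comparisons the p-values were 0.15, 0.15 and 0.4.

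**Figure D3:**
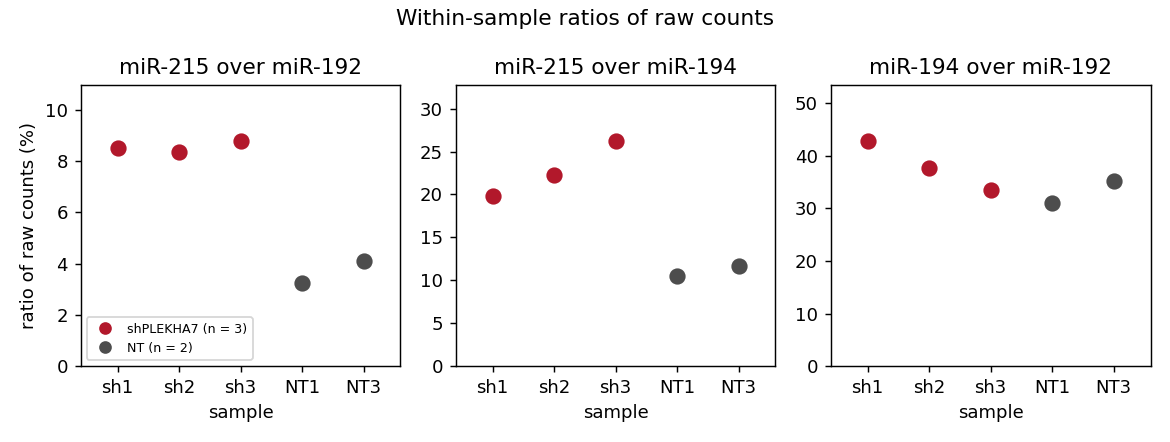
Raw count of 1 miRNA as a percentage of another in the same lane, for shPLEKHA7 replicates 1 to 3 (sh1, sh2, sh3) and NT replicates 1 and 3 (NT1, NT3), each panel with its own axis from 0. Both ratios with miR-215 on top are higher in every shPLEKHA7 sample than in either NT sample, while miR-194 over miR-192 overlaps.

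All 3 members had their highest normalized count in shPLEKHA7 replicate 3, the lane with the largest total count, although only 15.7% of the tested probes peaked there. Relative to the mean of the other 2 shPLEKHA7 samples on the log2 scale, that sample was 1.49-fold higher for miR-192, 1.24-fold for miR-194 and 1.55-fold for miR-215. In order of this excess they were the 7th, 26th and 4th of 204 tested probes, whose median was -0.05 on the log2 scale. Without this sample the log2 fold change of miR-192 was -0.23 (SE 0.12, adjusted p = 0.294) and that of miR-194 was 0.05 (SE 0.13, adjusted p = 0.839). The fold changes of all 3 were thus lower without shPLEKHA7 replicate 3.

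The order of levels, miR-192 above miR-194 above miR-215, held in 5 of 5 lanes. Counts of different probes also depend on how well each probe binds, so the order is one of signals and not of molecules. Over all lanes miR-192 was the 22nd of 654 human probes by mean normalized count, at 406 ± 71.6 (SD, n = 5), between let-7g at 409 ± 109 and miR-25 at 397 ± 25.9. miR-194 was the 36th at 144 ± 16.4, between miR-23b at 150 ± 55.4 and miR-30a at 135 ± 46.3. miR-215 was the 112th at 26.8 ± 12.7, between miR-619 at 27.2 ± 4.6 and miR-30e at 26.6 ± 4.0. None of the 3 differed from its neighbours by more than the spread over lanes. By raw count within a lane, miR-215 ranked 115th, 115th and 81st in shPLEKHA7 replicates 1, 2 and 3, while its NT counts, below the limit of detection, give no rank. miR-192 stayed between the 19th and the 23rd place in all 5 lanes.

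The likeness of patterns was taken as the root mean square distance between log2 normalized counts, each centred on its own mean over the 5 lanes. The pattern most like that of miR-192 was that of miR-106b (distance 0.12), followed by miR-15a (0.13) and miR-34a (0.13), against a median of 0.38 over 203 probes. The pattern most like that of miR-194 was again that of miR-106b (0.06), then miR-15a (0.08) and miR-365 (0.10), with a median of 0.34. For miR-215 they were miR-19a (0.15), miR-302d (0.21) and miR-32 (0.22), with a median of 0.65. Seen from miR-192, miR-194 was the 6th closest probe (0.16) and miR-215, which has the same seed, the 176th (0.58). The NT counts of miR-215 lay below their limits of detection, and it passed the filter through its shPLEKHA7 lanes alone. Distances to and from miR-215 therefore do not measure how far its pattern differs. Distances over 5 lanes describe these lanes only, and lanes share their depth and background.

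Of 10 other digestive-epithelium miRNAs on the panel 7 were tested, and edgeR called 0 higher and 0 lower. Over all tested probes 6.37% were called, so the absence of calls among 7 says little of the list. At an unadjusted p under 0.05, 1 of the 7 passed, miR-148a, and 48 of all 204 tested probes did. Their median log2 fold change was -0.15, with 2 above 0, against 0.06 over all tested probes. Groups were apart, as lower, for miR-148a, miR-200a, miR-200b and miR-200c, and overlapped for miR-122, miR-141 and miR-429. Over all tested probes 22.1% had groups apart as lower. miR-148a, which is abundant in liver and gut epithelium, stood at 272 ± 47.6 in shPLEKHA7 cells and 392 ± 81.8 in NT cells (log2 -0.53, SE 0.18, adjusted p = 0.119). miR-200c and miR-141, which restrain the ZEB repressors of epithelial genes, were at log2 -0.15 (SE 0.12) and 0.14 (SE 0.25). The remaining 3 of that family were at -0.39 for miR-200a, -0.31 for miR-200b and -0.14 for miR-429. miR-122, the defining miRNA of hepatocytes, was above the limit in 3 of 5 lanes and at log2 0.20 (SE 0.31). miR-375 of endocrine and gut epithelial cells, with raw counts from 4 to 11, and miR-7 and miR-802 were above the limit in 0 lanes.

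Of 9 other miRNAs known to be induced by p53, 5 were tested, and 0 were called higher and 0 lower by edgeR. Over all tested probes 6.37% were called, and 48 of 204 passed at an unadjusted p under 0.05. With so few probes tested, the absence of calls says little of the list. None of the 5 passed at an unadjusted p under 0.05. Their median log2 fold change was -0.06, with 2 above 0. miR-34a, the best known of them, stood at 37.1 ± 6.0 normalized counts in shPLEKHA7 cells and 40.8 ± 2.1 in NT cells (log2 -0.13, SE 0.22, adjusted p = 0.757). miR-107 was at log2 -0.19 (SE 0.17). miR-15a and miR-16, which are transcribed together, were at 0.00 (SE 0.14) and -0.06 (SE 0.14), and miR-145 at 0.07 (SE 0.41). miR-34b, miR-34c-5p, miR-143 and miR-605 did not pass the filter, with raw counts between 2 and 29.

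**Figure D4:**
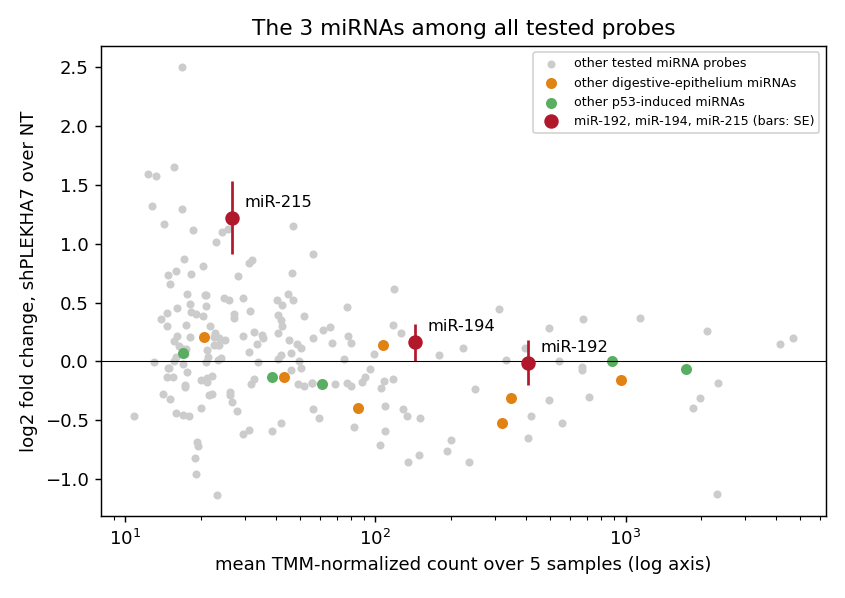
Log2 fold change of shPLEKHA7 over NT against the mean TMM-normalized count over 5 samples (log axis) for the 204 tested miRNA probes, with the 3 miRNAs in red (bars are SE) and the lists of other digestive-epithelium and p53-induced miRNAs in colour. miR-215 lies at log2 1.22, above 96.6% of the tested probes, in the range of low counts where fold changes spread most, while miR-192 and miR-194 lie near 0 at higher counts.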

How the data were processed

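The authors deposited whole-number counts per probe and lane, and a second table of normalized signal for the same lanes. The exporting software is not given in the sources used here. The deposited signal of human miRNA and mRNA probes equals the raw count times 1 factor per lane (100% within 0.02), which sets the geometric mean of the 5 housekeeping mRNAs to 1802.2, although its file is named for positive controls.

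The 734 miRNA probes entered edgeR 4.0.16 (R 4.3.3) scaled by TMM, in a model with the group alone and Benjamini-Hochberg adjustment over the 204 probes above the mean plus 2 SD of the negative controls in at least 2 lanes. The threshold was an adjusted p of 0.05. The SE was derived as the size of the log2 fold change divided by the root of its F statistic. Ratios used raw counts and a 2-sided exact permutation test. Limma 3.58.1 used log2 of the signal plus 1, and DESeq2 1.42.0 the counts. Scripts were tested on simulated counts. Replicates of a group differed beyond sampling noise (chi-square over its degrees of freedom from 1.8 to 5.12 per pair).

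Members, lists and tests were chosen with earlier results of these data known. Named miRNAs were the 3 members, all probes of the 2 lists and the cell type markers, the 3 most alike patterns and the neighbours in level of each member. Replicate numbers were not taken as pairs, since no label ties a number to an infection set. Sequences, positions and neighbouring genes come from RefSeq (GRCh38.p14), in which all 3 members matched.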

Additional observations from a re-analysis of the deposited data

How the results depend on the processing

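The rise of miR-215 kept its direction under every alternative that gave an adjusted p, but 5 of these did not call it: limma on the deposited values (log2 1.06), no filter (1.07), and leaving out shPLEKHA7 replicate 3, NT replicate 1 or NT replicate 3. Its range over the 5 fits that left out 1 sample was 0.95 to 1.38. These alternatives reused the same lanes, in which the groups of miR-215 were apart. It also passed the filter through its shPLEKHA7 lanes alone, so the kept direction is no further support. DESeq2 gave no adjusted p and the filter on all 5 lanes did not test it. With the replicate number as a block, miR-215 was at 1.31 (adjusted p = 0.00396 by edgeR) and the probes called were 22 (10 higher, 12 lower). In this fit miR-192 was at 0.04 and miR-194 at 0.23, both not called. There shPLEKHA7 replicate 2, with no NT sample of its number, adds nothing to the group difference. No label ties a replicate number to an infection set. miR-192 changed sign under total-count scaling (0.048), the filter on all lanes (0.047) and the block, and lay between -0.23 and 0.11 in the fits that left out 1 sample. For miR-194 spike-in scaling gave -0.16, and the fits that left out 1 sample gave 0.05 to 0.23. Spike-in scaling shifted the median of all tested probes to -0.27. Probes called were 13 in all (5 higher, 8 lower), 6 under housekeeping scaling (4 and 2), 20 under total counts (11 and 9), 33 under spike-in scaling (4 and 29), 9 by DESeq2 (0 and 9), 9 by limma on the deposited values (7 and 2), 10 without a filter (1 and 9), and from 0 to 18 with a sample left out. The 0, by edgeR without NT replicate 3, went with 34 probes at an unadjusted p under 0.05. The within-lane differences kept their sign throughout, which is no further support for those with miR-215 on top, whose groups were apart in these same lanes. For miR-215 over miR-192 they lay between 1.06 and 1.39 when 1 sample was left out and reached 1.80 after background subtraction. For miR-215 over miR-194 they ran from 0.93 to 1.13 and reached 1.61. For miR-194 over miR-192 they ran from 0.10 to 0.28. The causes of these shifts were not tested. Counts near the limit of detection bound what can be said of miR-215 in NT cells.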
